A study of Mus musculus with 6 samples.

Results

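The 10 genes described here belong to the circadian clock. They are Arntl and Clock, Per1, Per2, Per3 and Ciart, Nr1d1 and Nr1d2, and Dbp and Tef. They were chosen by name, and all 10 were found among the 43280 rows of the unfiltered count table and passed the filter on low counts that left 18606 rows. The libraries came from submandibular glands (SMGs) of adult female mice, 3 labelled wildtype (WT) and 3 labelled double knockout (DKO), and the labels number them 1, 4 and 5 in each group. The DKO mice were described as carrying a frameshift deletion, made with a zinc finger nuclease, in exon 1 of Hs3st3a1 and a LacZ cassette in Hs3st3b1, on a C57BL/6 background, and WT mice were littermates. Both genes encode enzymes that sulfate heparan sulfate. The changes are in the germline and not limited to the gland, and the founder line used for these glands was not given in the sources used here. All groups shared the same sex, tissue and housing under a fixed light and dark cycle, but the hour at which each gland was collected was not given in the sources used here. The question addressed was whether the clock stood at a different phase in different libraries.

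The clock is a feedback loop that most cells run for themselves. The proteins of Arntl (also named Bmal1) and Clock form a dimer that binds E-box sequences and switches on the Per and Cry genes, the REV-ERB genes Nr1d1 and Nr1d2, and output factors such as Dbp and Tef. PER and CRY proteins then block the dimer, and the REV-ERB proteins repress Arntl through ROR elements (ROREs), so that Arntl mRNA peaks at about the time of day when Dbp and Nr1d1 mRNA are lowest. Within the driven genes, Nr1d1 peaks before Dbp, and Per2 peaks after both. Salivary glands are among the peripheral tissues with such a clock.

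The sequences below show the kind of element through which these genes are wired to each other. They were read from the RefSeq promoter windows of GRCm38.p6, which run from 250 bases before to 50 bases after each annotated start, and 9 of the 10 genes had such a window. The E-box was searched as CACGTG on both strands. It was present in the windows of 3 of the 9 genes (Per1, Tef and Ciart), and in 8.09% of the 27025 genes with a window. Ciart, the gene whose count differed most between libraries, had 3 of them, which began 116, 58 and 44 bases before its start. The 250 bases before the start of Ciart (chr3:95882229-95882478, minus strand) are shown with the E-boxes in capitals.
Ciart: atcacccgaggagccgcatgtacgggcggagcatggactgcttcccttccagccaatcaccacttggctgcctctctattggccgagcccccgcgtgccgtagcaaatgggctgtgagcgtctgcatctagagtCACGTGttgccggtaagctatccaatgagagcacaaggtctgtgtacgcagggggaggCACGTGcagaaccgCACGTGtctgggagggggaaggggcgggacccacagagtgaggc

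Single matches in the other windows are shown with 10 bases on either side and the matched letters in capitals. The Per1 E-box lies at chr11:69098773-69098798 (plus strand), and those of Tef lie before separate annotated starts at chr15:81802536-81802561 and chr15:81811266-81811291 (plus strand). The D-box, which DBP and TEF proteins bind, was searched as TTANGTAA on both strands. It was found only in the window of Per3 among the 9 genes, with matches at chr4:151044853-151044880 and chr4:151044806-151044833 (minus strand), and in 2.72% of all genes with a window. The core of the RORE, searched as TAGGTCA on both strands, was found only in an Arntl window, at chr7:113207531-113207557 (plus strand), 30 bases after an annotated start, against 2.97% of all genes. The E-box variant CACGTT was found only for Nr1d1 (5.44% of all genes), on the strand opposite to the gene, and the cAMP response element TGACGTCA in 0 of the 9 (2.03% of all genes). A match is a description of the letters in these windows and not evidence of binding.
Per1 E-box: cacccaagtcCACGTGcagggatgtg
Tef E-box, first start: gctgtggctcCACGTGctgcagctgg
Tef E-box, second start: cctggcccagCACGTGtctacatcgt
Per3 D-box, distal: gacccgcgcgTTATGTAAggtactcggg
Per3 D-box, proximal: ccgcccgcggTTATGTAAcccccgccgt
Arntl RORE core: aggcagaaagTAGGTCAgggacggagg

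Total counts were between 23674258 and 29611975 per library. The targeted genes did not separate the groups, since Hs3st3b1 was counted 173 to 261 times in WT and 120 to 255 times in DKO libraries (DESeq2 adjusted p = 0.976), and Hs3st3a1 had 11 to 15 against 8 to 13 (DESeq2 adjusted p = 0.947). For genes described as inactivated, the count of Hs3st3b1 does not bear out the label DKO. That of Hs3st3a1 was low in both groups and cannot check the label. A count per gene shows neither a frameshift deletion nor which part of the gene the reads came from. By quantitative PCR, the paper reported no expression of either gene in adult DKO glands of both sexes. WT and DKO are therefore used here as the names on the labels, and every direction rests on them. Markers of the gland's cell types were present, and several moved with the labels. Of all rows tested, 9.85% were higher in every library labelled DKO than in every WT library, and 10.5% were lower. Of the acinar markers 4 of 4 were higher in every library labelled DKO (summed normalized counts 30489 to 46681, against 23660 to 29263), of the myoepithelial markers 4 of 4 were lower (4087 to 5399 against 7611 to 8148), of the granular duct markers 4 of 5 were lower (57958 to 95935 against 112602 to 151243), of the lymphoid markers 4 of 5 were lower (362 to 623 against 820 to 3722) and of the red blood cell markers 5 of 5 were higher (2824 to 3167 against 863 to 1772). The sublingual gland markers Muc19, Dcpp1, Dcpp2 and Dcpp3 summed to 90185 normalized counts in WT 5 and 6361 in DKO 1, and to between 84.2 and 140 in the other 4 libraries, and the granular duct gene Ren1 had 83.3 and 113 in those libraries against at least 12505 in the others. The adipocyte markers Adipoq, Plin1, Cidec and Lep were at or near 0, with 5 to 8 counts each over all 6 libraries, and the skeletal muscle markers were low and alike (43.5 to 52.8 against 47.3 to 49.1, 0 of 3 called). The part of these differences in the clock gene values was not tested, and in bulk tissue fewer cells of a type and less RNA per cell cannot be told apart.

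Between genes, levels were compared as normalized read counts per kilobase of annotated exon. Nr1d2 (mean over 6 libraries 529, range 403 to 694) and Nr1d1 (473, 287 to 765) were the most abundant of the 10, followed by Dbp (326, 94.6 to 720) and Tef (323, 198 to 533). Per1 (149, 37.3 to 223), Per3 (127, 70.2 to 208) and Clock (105, 87.4 to 121) came next, and Per2 (42.0, 19.8 to 106), Arntl (30.05, 5.84 to 45.1) and Ciart (15.5, 3.50 to 44.8) were lowest. The ranges of all neighbours in this order overlapped.

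The activator Arntl (chromosome 7, 113207465 to 113314126, plus strand in GRCm38) was counted 343, 183 and 268 times in WT 1, 4 and 5 (names as labelled), and 348, 42 and 194 times in DKO 1, 4 and 5. DKO 4 lay far below all other libraries. Its 42 counts have a 95% Poisson interval of 30.3 to 56.8, and the next lowest library, WT 4 with 183 counts, one of 157 to 212 (intervals cover counting error only). In normalized read counts, which were divided by the size factor of each library, DKO 4 had 43.9 and the other libraries 179 to 339, and the highest and the lowest library differed 7.73-fold. Clock (chromosome 5, 76209868 to 76304792, minus strand), whose protein is the partner of ARNTL, was the steadiest of the 10 genes. It was at 1665, 1447 and 1562 normalized counts in WT 1, 4 and 5, and at 1488, 1276 and 1199 in DKO 1, 4 and 5, a 1.39-fold difference between the extremes.

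The Per genes encode the period repressors, and they did not move as a block. Per2 (chromosome 1, 91415982 to 91459324, minus strand) was at 200, 227 and 158 normalized counts in WT 1, 4 and 5, and at 116, 622 and 154 in DKO 1, 4 and 5. DKO 4 was the single high library and the other 5 lay within 116 to 227. Per1 (chromosome 11, 69095217 to 69109960, plus strand) stood at 851, 1060 and 1007 normalized counts in WT 1, 4 and 5, and at 654, 1258 and 210 in DKO 1, 4 and 5. Here a different library stood apart, DKO 5, and the range within the DKO group was 5.997-fold. Per3 (chromosome 4, 151003652 to 151044665, minus strand) was spread over both groups, with 675, 1469 and 982 in WT 1, 4 and 5, and 771, 2002 and 1423 in DKO 1, 4 and 5.

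Ciart (chromosome 3, 95878503 to 95882251, minus strand), which encodes a further repressor of the ARNTL and CLOCK dimer, was counted 8, 23 and 12 times in WT 1, 4 and 5, and 21, 97 and 41 times in DKO 1, 4 and 5. At this depth the 8 counts of WT 1 have a 95% Poisson interval of 3.45 to 15.8 and the 97 of DKO 4 one of 78.7 to 118. The normalized counts spanned 7.92 to 101, a 12.8-fold range and the widest of the 10 genes. The groups overlapped, because WT 4 (22.5) was above DKO 1 (19.9).

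The REV-ERB receptors Nr1d1 and Nr1d2 repress Arntl. Nr1d1 (chromosome 11, 98767932 to 98775333, minus strand) was at 882, 1758 and 1154 normalized counts in WT 1, 4 and 5, and at 1149, 1439 and 2354 in DKO 1, 4 and 5. It was the only one of the 8 repressor and output genes that was not highest in DKO 4, and its highest library was DKO 5, where Per1 was lowest. Of its exon bases 8.55% are also exon of Thra on the opposite strand, a thyroid hormone receptor gene with 436 to 590 normalized counts, and without strand reads from there cannot be told apart. Nr1d2 (chromosome 14, 18204054 to 18239127, minus strand) varied less, with 2178, 3171 and 2861 in WT 1, 4 and 5, and 2401, 3754 and 2812 in DKO 1, 4 and 5.

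Dbp and Tef encode PAR bZIP transcription factors, which carry the rhythm to output genes through D-boxes. Dbp (chromosome 7, 45705088 to 45710203, plus strand) was at 283, 981 and 558 normalized counts in WT 1, 4 and 5, and at 458, 2155 and 1411 in DKO 1, 4 and 5. The spread was wide inside each group, 3.47-fold among WT and 4.70-fold among DKO libraries. Of the exon bases of Dbp, 18.0% are shared with Sphk2 on the opposite strand, which had 462 normalized counts in DKO 4, its lowest library, and up to 741 in DKO 5. Tef (chromosome 15, 81802421 to 81826863, plus strand) followed the same order within each group, with 1710, 3133 and 2089 in WT 1, 4 and 5, and 1560, 4197 and 2555 in DKO 1, 4 and 5.

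**Figure D1:**
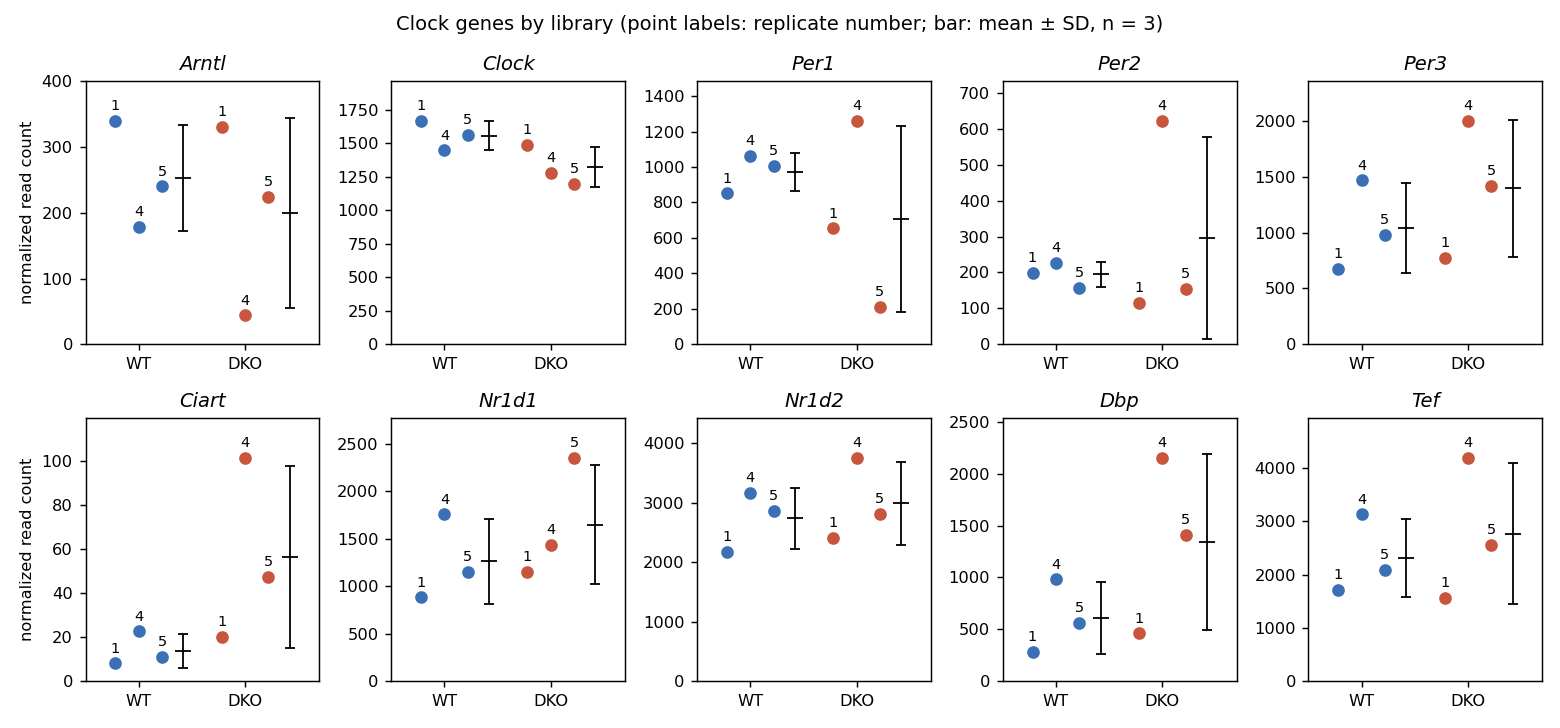
Normalized read counts of the 10 clock genes in each library, WT in blue and DKO in red, with the replicate number above each point and the mean ± SD (n = 3) as a bar. DKO 4 held the highest value of 7 genes and the lowest of Arntl, and DKO 5 stood apart for Per1 (210) and Nr1d1 (2354).

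The clock genes were spread more widely between libraries than the median gene. The highest and the lowest library differed by a median of 1.99 on the log2 scale over the 10 genes, against 0.67 over all rows tested. The medians were 0.90 and 0.33 within WT, and 1.83 and 0.42 within DKO. All 10 genes had a wider range than the median of rows within 2-fold of their own mean count, over the 6 libraries and within each group. These are descriptions, given with no test. The high values followed a similar order of libraries. In both groups, library 4 was highest, library 5 intermediate and library 1 lowest for Per3, Dbp, Tef, Nr1d2 and Ciart, and the reverse held for Arntl. The numbers stood in the same order in both groups for 6 of the 10 genes, and for 14.7% of all rows tested. Genes of a feedback loop do not vary independently of each other, so this count is a description and no measure of enrichment.

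The activators and the genes they drive stood on opposite sides of their means in several libraries. On the log2(normalized count + 1) scale, all 8 repressor and output genes were above their own mean over the 6 libraries in DKO 4, where Arntl (deviation -2.09) and Clock (-0.16) were under theirs. The opposite was seen in DKO 1, where 0 of the 8 genes and both activators were above their mean, and in WT 1, where 1 of the 8 (Per1) and both activators were. WT 5 was nearer to these, with 2 of the 8 above. In WT 4, 7 of the 8 were above the mean, all by at most 0.53, and Clock (0.02) but not Arntl was. DKO 5 was mixed, with 5 of the 8 above the mean and Per1 (-1.80) and Per2 (-0.42) below it.

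**Figure D2:**
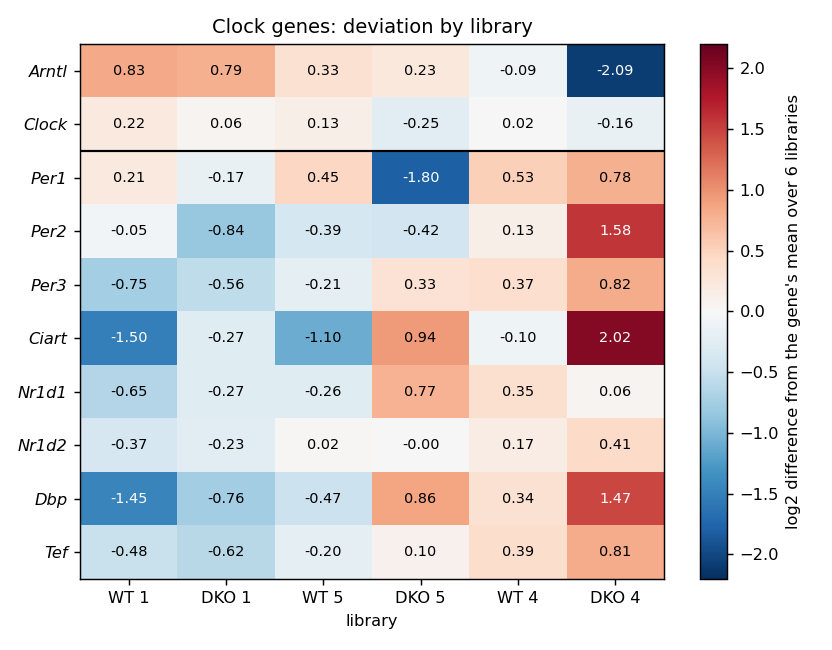
Deviation of each clock gene in each library from its own mean over the 6 libraries, on the log2(normalized count + 1) scale (red above, blue below), with the activators over the line and the driven genes under it, and libraries of the same number side by side. The columns of WT 1 and DKO 1 are alike in most rows, DKO 4 is their opposite, and DKO 5 combines high Dbp (0.86) and Nr1d1 (0.77) with low Per1.

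The antiphase contrast, which is the mean log2 level of the 8 repressor and output genes minus that of Arntl and Clock, put this on 1 scale for each library. It was -0.84, 0.62 and -0.19 in WT 1, 4 and 5, and -0.57, 2.43 and 0.42 in DKO 1, 4 and 5. From the lowest value to the highest, libraries of the groups alternated, and DKO 4 stood far above the next, WT 4. The mean ± SD over 3 libraries was -0.14 ± 0.73 for WT and 0.76 ± 1.53 for DKO, a difference of 0.90, of 0.06 without DKO 4, and of 1.54 without WT 5 and DKO 1, which held sublingual gland markers. In counts, not scaled by gene length and so to be compared between libraries only, Dbp was 0.834 times Arntl in WT 1 and 1.39 times in DKO 1, 2.32 times in WT 5, 5.48 and 6.31 times in WT 4 and DKO 5, and 49.1 times in DKO 4.

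The libraries with the closest contrast still differed in which of the driven genes were high. WT 4 and DKO 5 had contrasts of 0.62 and 0.42. On the same unscaled counts, Per1 was 0.603 times that of Nr1d1 in WT 4 and 0.0891 times in DKO 5, while the other 4 libraries lay between 0.569 and 0.965. Per2 was 0.129 times Nr1d1 in WT 4, 0.0656 times in DKO 5, the lowest, and 0.432 times in DKO 4, the highest. Ratios within a library do not depend on the scaling of the library, but the order of the genes within a library shows only that their levels were unequal.

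**Figure D3:**
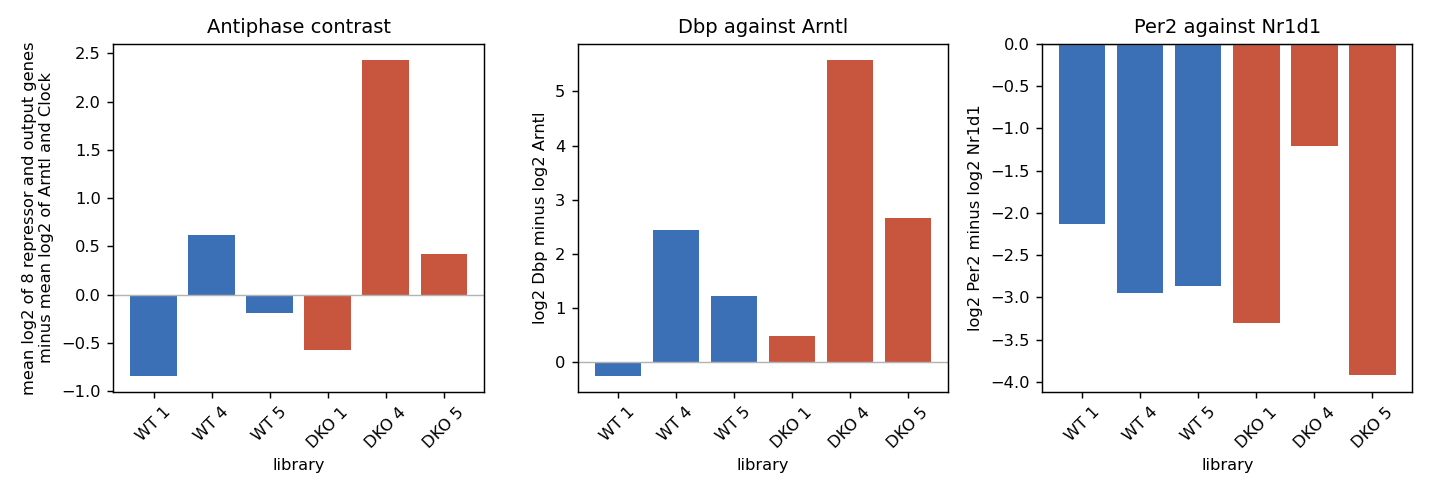
Antiphase contrast (left), log2 Dbp minus log2 Arntl (middle) and log2 Per2 minus log2 Nr1d1 (right) in each library, WT in blue and DKO in red. DKO 4 is highest in all 3 panels, and DKO 5 is lowest in the right panel although its Dbp to Arntl ratio is second highest.

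Between the groups as labelled, with the counts of the targeted gene Hs3st3b1 not bearing out the label DKO, 1 of the 10 clock genes passed the threshold of an adjusted p-value under 0.05 and 0 were lower. Over all 18606 rows tested, 1.02% were called higher, 1.88% lower and 2.9% in either direction. Ciart rose from 13.7 ± 7.73 to 56.2 ± 41.5 normalized counts (SD, n = 3 in each group), which is 2.03 on the log2 scale with an SE of 0.59 (DESeq2 adjusted p = 0.0239). The call was lost without DKO 4 (log2 fold change 1.29, DESeq2 adjusted p = 0.494), without DKO 5 (adjusted p = 0.149), and without WT 1 (0.268) or WT 5 (0.267). Without WT 5 and DKO 1 together the log2 fold change was 2.29 with an adjusted p of 0.0545 (DESeq2). It was also lost under edgeR (adjusted p = 0.2) and limma-voom (0.308). These tools called 0 of the 10 genes, and 0.0537% and 0.0376% of all rows tested. With 1 library left out, DESeq2 called from 0.785% of all rows (without WT 5) to 4.38% (without WT 4). Of these 10 genes, 2 (Ciart and Clock) had an unadjusted DESeq2 p-value under 0.05, against 12.2% of all rows tested, a share to be read beside each such count in the lists that follow. Of the 10, 0 showed groups without overlap, while 20.3% of all rows tested did (9.85% higher and 10.5% lower).

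The other 9 genes did not pass the threshold in this fit. Dbp averaged 607 ± 352 normalized counts in WT and 1342 ± 851 in DKO (SD, n = 3), which the fit put at 1.14 on the log2 scale with an SE of 0.76 (DESeq2 adjusted p = 0.579). Clock, with the smallest error, averaged 1558 ± 109 and 1321 ± 149, with a fitted value of -0.24 (SE 0.12, DESeq2 adjusted p = 0.335). With total counts as size factors it was called lower (-0.47, DESeq2 adjusted p = 0.0284). That scaling called 7.9% of all rows in either direction and moved the median of all rows tested to -0.23. Arntl (-0.34, SE 0.79) and Per1 (-0.46, SE 0.68) had negative values, and Per2 (0.61, SE 0.75), Per3 (0.42, SE 0.49), Nr1d1 (0.38, SE 0.43), Tef (0.26, SE 0.46) and Nr1d2 (0.13, SE 0.17) positive ones, with DESeq2 adjusted p-values from 0.821 to 0.93. The median of the 10 genes was 0.32, against 0.00 over all rows tested. Leaving out DKO 4 brought the median of the 10 to 0.00 and turned the sign of Per2 (-0.53), Tef (-0.17), Nr1d2 (-0.071) and Arntl (0.13), and it took the log2 fold change of Per1 to -1.17 (DESeq2 adjusted p = 0.434). Leaving out DKO 5 brought the log2 fold change of Per1 to -0.02.

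**Figure D4:**
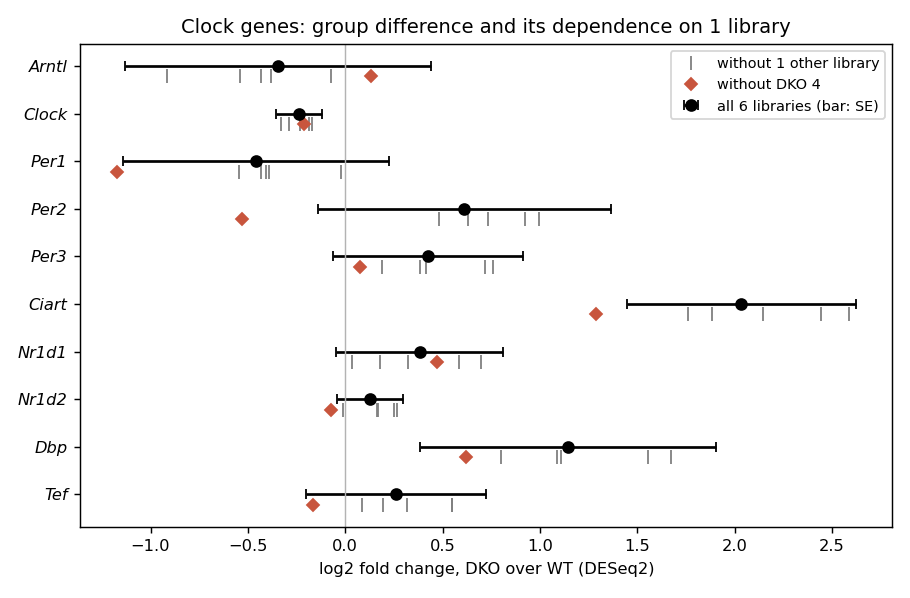
DESeq2 log2 fold change of each clock gene, libraries labelled DKO over WT, with its SE (black), without DKO 4 (red diamonds) and without each other single library (grey ticks). The diamonds of Per2, Tef, Nr1d2 and Arntl lie on the other side of 0 from the black points, and that of Ciart lies at 1.29.

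Other genes of the clock were then examined library by library. In this and the 2 following lists, the counts of 0 held for DESeq2, edgeR and limma-voom. Of 12 further transcription factors and repressors, 0 were called and 3 (Cry2, Bhlhe40 and Bhlhe41) had an unadjusted p-value under 0.05, with a median log2 fold change of 0.02. Rorb, with 14 counts in all, was given no adjusted p-value. Without DKO 1, Cry2 and Bhlhe40 were called higher (DESeq2 adjusted p = 0.00535 and 0.00396). Bhlhe41, which encodes the repressor DEC2, was at 178, 256 and 207 normalized counts in WT 1, 4 and 5, and at 200, 480 and 270 in DKO 1, 4 and 5. It followed the antiphase contrast over the 6 libraries (Pearson r = 0.99, Spearman rho = 0.94), which share their depth and scaling with it, so these values are descriptions. Npas2, which encodes a paralog of CLOCK that also pairs with ARNTL, ran the other way, with 141, 101 and 125 against 178, 38.7 and 84.2 (r = -0.96, rho = -0.89). Its lowest library was DKO 4, as for Arntl. Without DKO 4 the values of r were 0.96 for Bhlhe41 and -0.85 for Npas2, and without DKO 4 and WT 1, the libraries farthest from the median contrast, 0.94 and -0.91 over 4 libraries.

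The cryptochromes Cry1 and Cry2, partners of the PER proteins, did not share a pattern. Cry1 was at 138, 67.5 and 83.3 normalized counts in WT 1, 4 and 5, and at 140, 171 and 89.9 in DKO 1, 4 and 5. It was thus high both in DKO 4 and in the libraries with the lowest contrast (r = 0.20, and -0.89 without DKO 4). Cry2 had 323, 440 and 337 against 343, 553 and 691, and its highest library was DKO 5 (r = 0.68). Rora, Nfil3 and Hlf had log2 fold changes from -0.012 to 0.037.

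The 7 genes for clock protein kinases and ubiquitin ligases, which set the stability of PER and CRY proteins, varied little. Their highest and lowest libraries differed by a median of 0.23 on the log2 scale, 0 were called, 0 had an unadjusted p-value under 0.05, and their log2 fold changes lay between -0.25 (Btrc) and -0.01 (Csnk1e), with a median of -0.03.

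Of 10 clock output genes, 0 were called and 2 (Nampt and Noct) had an unadjusted p-value under 0.05, with a median log2 fold change of 0.19. Wee1, a cell cycle kinase gene driven through E-boxes, was at 114, 152 and 150 normalized counts in WT 1, 4 and 5, and at 134, 237 and 151 in DKO 1, 4 and 5 (r = 0.97, rho = 1, and r = 0.86 without DKO 4). Usp2, a deubiquitinase gene that cycles in many tissues, had 240, 344 and 356 against 220, 627 and 242 (r = 0.88), and Coq10b had 229, 261 and 278 against 202, 537 and 251 (r = 0.93). DKO 4 was highest in both, and without it the values of r were 0.495 and 0.611. Noct, listed as Ccrn4l and encoding the deadenylase nocturnin, was lower without overlap, with 711, 592 and 861 against 526, 555 and 296 (log2 fold change -0.65, SE 0.22, DESeq2 adjusted p = 0.0638). Nampt had 659, 372 and 437 against 326, 402 and 332. Not all output genes rose with the contrast, as r was -0.31 for Nampt, -0.24 for Noct and -0.68 for Cdkn1a (118 counts in all). For the others it was between 0.69 and 0.97.

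**Figure D5:**
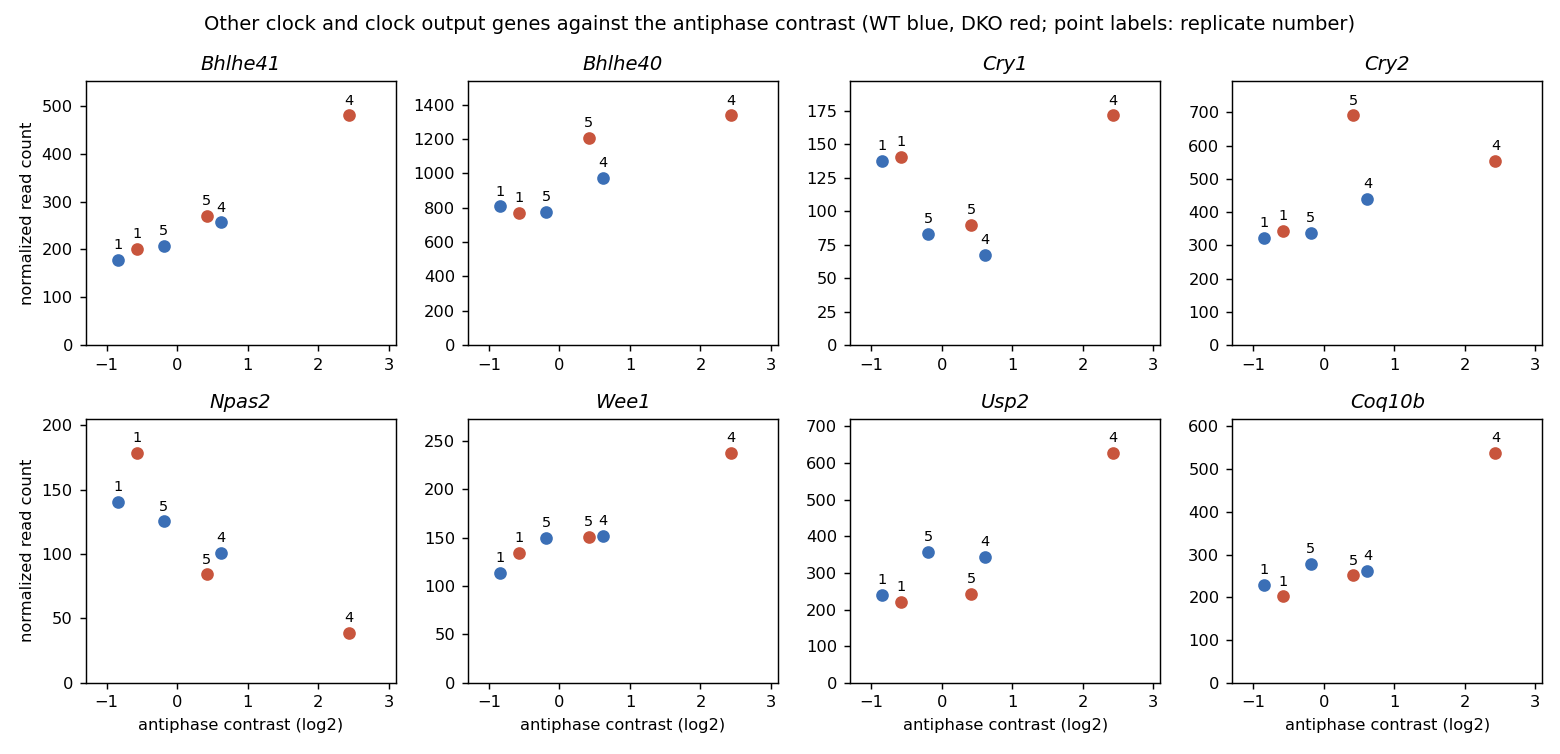
Normalized read counts of other clock and clock output genes (vertical axis) against the antiphase contrast (horizontal axis, log2), WT in blue and DKO in red, with replicate numbers. Bhlhe41 and Wee1 climb and Npas2 declines from left to right over both groups, Usp2 and Coq10b are high in DKO 4 only, and Cry1 is high at both ends.

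Per1 and Per2 also respond to glucocorticoids and to acute stimuli, so genes of those responses were read in the same libraries. Of 8 glucocorticoid-responsive genes, 2 were called lower and 0 higher in libraries labelled DKO, with a median log2 fold change of -0.11. Over all rows tested, 1.88% were called lower and 1.02% higher. An unadjusted DESeq2 p-value under 0.05 was found for 4 of the 8. Zbtb16, Fkbp5 and Sgk1 (log2 fold change -0.33) were lower and Ddit4 (0.76) was higher. Zbtb16, which encodes a zinc finger repressor, fell from 352 ± 56.8 to 171 ± 32.6 normalized counts (SD, n = 3; log2 fold change -1.04, DESeq2 adjusted p = 4.09e-05). Fkbp5, which encodes a chaperone of the glucocorticoid receptor, was at 968, 731 and 941 normalized counts in WT 1, 4 and 5, and at 393, 640 and 394 in DKO 1, 4 and 5 (log2 fold change -0.89, DESeq2 adjusted p = 0.000789). Neither gene was called under edgeR (adjusted p = 0.089 and 0.147). With 1 library left out, the DESeq2 adjusted p-value was at most 0.0124 for Zbtb16 and reached 0.0638 for Fkbp5, which was not called without WT 1, WT 5 or DKO 5. In DKO 5, the library with low Per1, the list was split. Sgk1 (719), Tsc22d3 (443), Zbtb16 (135) and Klf9 (1706) were at their lowest there. Ddit4 (417, against 134 to 234 elsewhere), Klf15 (1009) and Mt2 (256) were at their highest, and Fkbp5 was lowest in DKO 1.

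Of 8 immediate early genes, 1 was called lower and 0 higher in libraries labelled DKO, with a median log2 fold change of -0.08. The share of all rows tested that were called lower was 1.88%. An unadjusted DESeq2 p-value under 0.05 was found for 2 of the 8, Dusp1 (lower) and Nr4a1 (higher, log2 fold change 0.43). Dusp1, which encodes a phosphatase of MAP kinases, was at 129, 143 and 108 normalized counts in WT 1, 4 and 5, and at 57.9, 84.7 and 63.4 in DKO 1, 4 and 5 (log2 fold change -0.88, DESeq2 adjusted p = 0.0219; edgeR adjusted p = 0.147). That call held in 1 of the 6 fits with a library left out, that without DKO 4. Fos was highest in WT 4 (163, against 32.7 to 61.1 in the others). So were Atf3 (90.0, against 41.6 to 54.2) and Fosb (32.3, against 6.27 to 21.9, with 94 counts in all), and Dusp1. Junb, Ier2 and Nr4a1 were highest in DKO 4, and Egr1 in DKO 5. Of 7 temperature-responsive genes, 0 were called by DESeq2, edgeR or limma-voom and 2 (Hspa1b and Hsph1) had an unadjusted DESeq2 p-value under 0.05, with a median log2 fold change of -0.15. Cirbp, a cold-inducible RNA-binding protein gene, had its highest value (513) and the heat shock gene Hsph1 its lowest (295) in DKO 5, with 335 to 433 and 309 to 447 in the other libraries. Rbm3, another gene of this list, went the other way from Cirbp. Its lowest value was in DKO 5 (1259, against 1288 to 1558 in the other libraries). Also lowest in DKO 5 were the remaining heat shock genes of the list, Hspa1a (104), Hspa1b (195), Hsp90aa1 (1064) and Dnajb1 (173).

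By Pearson r over the 6 libraries, the genes most like the antiphase contrast were sought among 11480 further rows with a mean of at least 50 normalized counts. Bhlhe41 had the highest value of all (r = 0.99), followed by Cebpz, Hif1a, Gabarapl2 and Prkcsh, the last with r = 0.986. These 4 had narrow ranges, from 0.27 to 0.41 on the log2 scale, against 1.42 for Bhlhe41. The lowest values were those of Arhgap20, Tnnt2, Prkd2, a row known only by a clone name and Coro7 (r from -0.99 to -0.98). Wee1 ranked 22 from the top and Npas2 18 from the bottom. With 6 libraries, 1 of them far from the rest, high values are frequent, and 314 rows had an r above 0.9 and 113 one below -0.9.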

How the data were processed

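RNA from 6 SMGs was made into unstranded Nextera XT libraries and sequenced on a HiSeq2500. Raw counts were deposited by the authors for each gene symbol, with 1 column per library. The submitters' processing notes name STAR 2.5.2a, DESeq2, edgeR and limma, and the builds GRCm38, mm10 and GRCh38, without roles. The counting tool and annotation are not given in the sources used here. Without strand, reads of a clock gene and of an antisense neighbour cannot be separated. A filtered count table and a scaled table were not used.

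Rows with at least 10 counts over the 6 libraries were tested with DESeq2 1.42.0 in R 4.3.3 (design by group, median-of-ratios size factors of 0.867 to 1.12, two-sided Wald test, unshrunken fold changes, Benjamini-Hochberg adjustment over all rows tested, threshold 0.05), the test that the study names. edgeR 4.0.16, limma 3.58.1 (voom), other size factors and filters, a replicate block and fits without each single library were alternatives. The fits were tested on simulated data. The contrast used log2(normalized count + 1) and has no test. The study describes its replicates as biological, but the labels tie no gland to an animal, and p-values measure the spread between these glands. Libraries of a group differed beyond sampling noise (chi-square over its degrees of freedom 12.6 to 32.5). A permutation test of 3 against 3 cannot go below p = 0.1 and was not used.

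The members and the lists (6 of other clock and response genes, 8 of markers) were chosen with earlier results of these data known. Named genes were all members, every gene called in the other lists, up to 4 more of each, and the 5 rows at either end of r with the contrast. Genes named beyond these (Bhlhe40, Bhlhe41, Rora, Nfil3, Hlf, Noct, Coq10b, Cdkn1a, Nr4a1 and others picked for a library) were chosen after their values were seen. Coordinates and exon lengths are from GENCODE M21 (GRCm38) and promoter windows from RefSeq, matched by symbol. Noct was matched to Ccrn4l, its RefSeq synonym.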

Additional observations from a re-analysis of the deposited data

How the results depend on the processing

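The number of clock genes called higher (1) was 0 under edgeR, limma-voom and without both libraries that hold sublingual gland markers (an alternative chosen after seeing the data; Ciart adjusted p = 0.0545), and 0 to 1 with 1 library left out. The number called lower (0) was 1 with total counts as size factors. With 1 library left out, the log2 fold change ran from -0.53 to 0.996 for Per2, -0.17 to 0.55 for Tef, -0.071 to 0.26 for Nr1d2 and -0.92 to 0.13 for Arntl. It turned in each without DKO 4, and for Nr1d2 also without WT 1 (-0.01) and with total counts (-0.11). The contrast difference of 0.90 was 0.06 to 1.56 with 1 library left out. The causes were not tested. With total counts, 2 kinase and ligase genes, 2 output genes and 2 temperature-responsive genes were called lower, and 1 temperature-responsive gene was with at least 10 counts in at least 3 libraries, against 0 each. With 1 library left out the calls were 0 to 2 for other core clock genes (higher), 0 to 1 for output genes (lower), 0 to 1 and 1 to 3 for glucocorticoid-responsive genes (higher and lower), 0 to 1 for immediate early genes in either direction and 0 to 1 for temperature-responsive genes (lower). Glucocorticoid-responsive genes called lower were 0 under edgeR and limma-voom and 1 without both libraries with sublingual markers, and immediate early genes called lower were 0 in these fits.

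With the replicate number as a block, DESeq2 called 2 clock genes higher, Ciart (adjusted p = 0.0276) and Dbp (log2 fold change 1.07, adjusted p = 1.89e-08). In that fit 0 immediate early genes were called lower, and 343 rows in all were called, against 539. A block over 6 libraries leaves few degrees of freedom, and the numbers are not known to pair the glands, so these p-values are given as a dependence on the model only. Over all rows, edgeR called 10, limma-voom 7, total counts 1469, and fits without 1 library 146 to 815. Over 11489 rows with a mean of at least 50 normalized counts, the deviations of same-numbered libraries from their group means correlated at -0.13 (number 1), -0.02 (4) and -0.26 (5). The numbers thus showed no pairing over these rows as a whole. Values over so many rows cannot tell whether a few genes share such a pairing. Over the 10 clock genes alone the values were 0.81, 0.66 and -0.01, and WT 5 was nearer to DKO 1 (0.38). They are a description from genes that share libraries, on the same counts as the block fit, and are no separate evidence for its calls.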
